A study of Arabidopsis thaliana with 6 samples.

Results

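Cytochrome P450 genes were followed across 6 Affymetrix ATH1 arrays of Arabidopsis thaliana shoots. A gene was included where the platform annotation gave its probe set 1 gene only, with a P450 symbol (CYP, a family number, a subfamily letter and a gene number). This gave 23 genes out of 13286 loci with a probe set of 1 gene. Each of the 23 had 1 probe set, so no choice among probe sets was needed. Of these genes, 19 belong to subfamily 71B, and the other 4 are CYP51G2, CYP78A9, CYP79A2 and CYP84A4. The reference gene table (assembly TAIR10.1) names 236 P450 loci by the same pattern, and the remaining ones were not analysed here.

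P450 enzymes are heme-containing monooxygenases, mostly bound to the endoplasmic reticulum, that insert oxygen into small molecules with electrons passed on by a reductase. In plants they serve hormone, phenylpropanoid, glucosinolate, terpene and fatty acid metabolism. The 71B subfamily is large in Arabidopsis, lies mostly in tandem arrays and holds many members with no assigned reaction. Its best known member, CYP71B15 (PAD3), makes the antifungal indole camalexin and was not analysed here. CYP71B6 acts in the same indole branch and turns indole-3-acetonitrile into indole-3-carboxylic acid and related compounds.

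The arrays came from 3 EBE-XVE samples (line 14 in the Col-0 background) and 3 wild-type (WT) Col-0 samples. EBE-XVE seedlings carry an estradiol-inducible construct for EBE, an AP2/ERF transcription factor encoded by AT5G61890. Seedlings 3 weeks old spent 16 h in shaken liquid medium, both genotypes then received 2 µM β-estradiol, and shoots were taken 45 min later. EBE-XVE was 1 line and no array came from uninduced seedlings, so effects of the line and of EBE induction cannot be told apart. The titles call the replicates biological. In bulk shoots, fewer cells of a type and less RNA per cell cannot be told apart either.

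EBE read 8.55, 7.21 and 3.19 log2 units in EBE-XVE replicates 1, 2 and 3 and 4.26, 2.98 and 3.02 in WT. The array labelled EBE-XVE replicate 3 thus showed no raised EBE, and genotype results are also given without it. Array medians were 5.38 and 5.47 on the replicate 1 arrays and 4.44 to 4.50 on the other 4, so replicate 1 of both genotypes stood apart. The shoot markers measured (2 of 11 listed), LHCB4.1 and PSAN, read 11.99 to 13.72 on all arrays. Of 9 root markers listed, 3 were measured. PYK10 read 12.14 and 12.26 in replicate 1 against 8.58 to 9.21 elsewhere, while EXPA7 and EXPA18 stayed at 1.75 to 2.13, under each array's lower quartile. None of the 6 anther or pollen markers had a named probe set.

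The P450 genes spanned the whole range of the arrays, from among the dimmest probe sets to among the brightest. All 7 that lay above the array median on all 6 arrays were 71B genes, CYP71B5, CYP71B6, CYP71B22, CYP71B23, CYP71B26, CYP71B28 and CYP71B34. That is 30.4% of the P450 genes, beside 45% of all 22746 probe sets tested. A further 8 lay under the lower quartile on all arrays, between 1.83 and 2.54, and 7 lay between these classes. CYP71B24 was above the median on 4 arrays. Over the 6 arrays the values of 16 P450 genes stayed within 1 log2 unit (69.6%, beside 61.5% of all probe sets).

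CYP71B26 (AT3G26290) gave the strongest P450 signal on every array. It read 11.86, 10.39 and 9.89 in EBE-XVE replicates 1, 2 and 3 and 11.12, 10.31 and 10.32 in WT. These values stood between the 93.5th and 97.5th percentile of their arrays. CYP71B34 (AT3G26300), which lies in the same tandem run, read 7.85, 7.19 and 7.38 in EBE-XVE and 7.88, 7.20 and 7.69 in WT. It had one of the narrowest ranges among the bright genes, 0.69 log2 units over all arrays. CYP71B28 (AT1G13090) read 7.49, 6.56 and 6.69 in EBE-XVE and 7.80, 6.78 and 6.88 in WT. CYP71B5 (AT3G53280) read 6.60, 6.61 and 7.06 in EBE-XVE and 7.07, 6.55 and 6.72 in WT, a range of 0.51 in which the genotypes overlapped.

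The 4 genes outside subfamily 71B were all dim. CYP84A4, which takes part in the synthesis of α-pyrones (arabidopyrones) from phenylpropanoid precursors, read 2.32 and 2.30 on the replicate 1 arrays and 2.069 to 2.099 on the other 4. CYP79A2, which converts phenylalanine to its aldoxime for benzylglucosinolate, read 2.11 to 2.22. CYP78A9, a gene that promotes fruit and seed growth, read 1.83 to 1.94. CYP51G2, a paralogue of the sterol demethylase gene CYP51G1 that the reference table lists as a transcribed pseudogene, read 2.39 to 2.48. CYP71B31, known to hydroxylate the floral monoterpenol linalool, read 2.35 to 2.45. Its neighbour CYP71B30P, named as a pseudogene but listed as protein coding in the reference table, read 2.24 to 2.33. Real transcripts as scarce as this could not be told from background, because the deposited values carry no detection call.

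**Figure D1:**
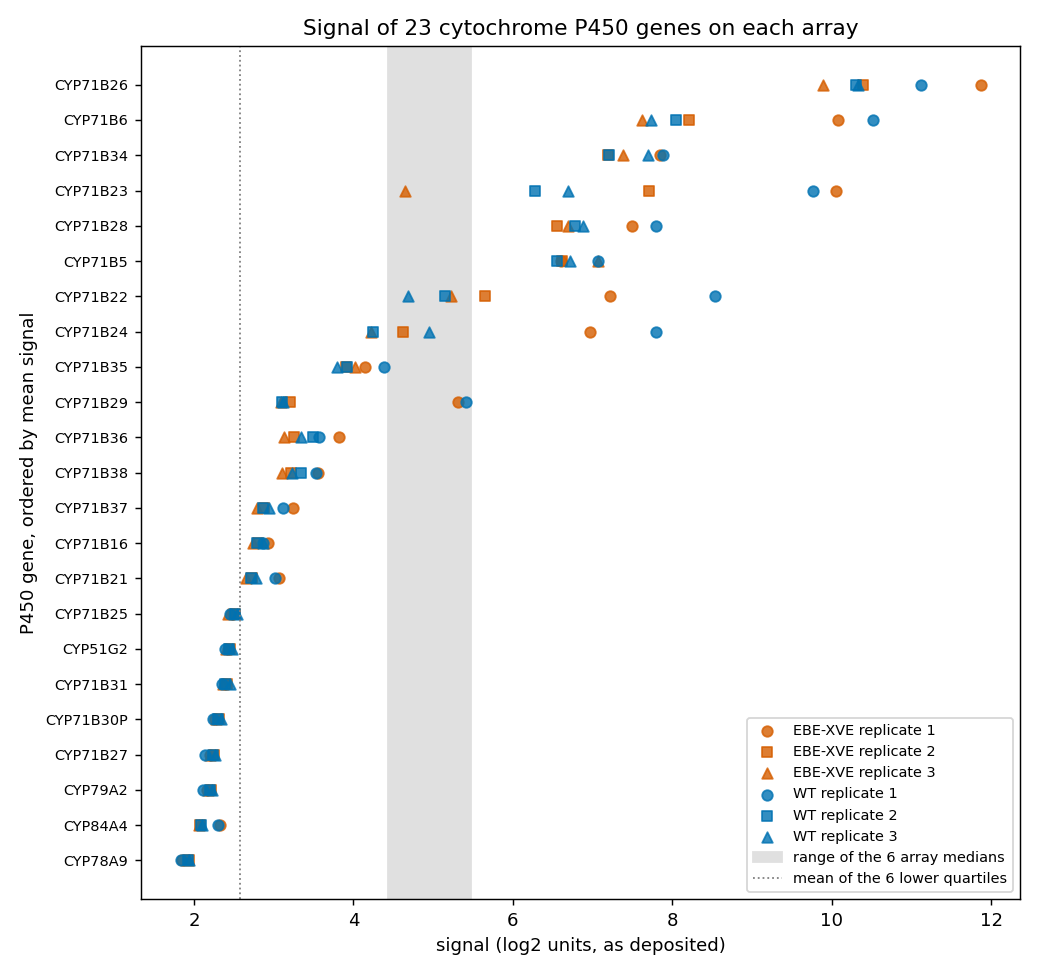
Deposited log2 signal of each of the 23 P450 genes (rows, ordered by mean) on each of the 6 arrays, with colour for genotype and marker shape for replicate number. The grey band spans the array medians, 4.44 to 5.47. The replicate 1 circles of CYP71B6, CYP71B22, CYP71B23, CYP71B24 and CYP71B29 lie farthest to the right of their other 4 points. Those of CYP71B26, CYP71B28, CYP71B34 and several dimmer genes also lie to the right, by less. The lowest 8 genes stay between 1.83 and 2.54.

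EBE-XVE was then set against WT, the contrast the series was designed for, which asked for early targets of EBE. No P450 gene was called different between the genotypes. In limma fitted to all probe sets, 0 of the 23 genes were called higher and 0 lower at an adjusted p under 0.05, beside 0% of all probe sets in either direction. That fit had group as its only term, so its error includes the offset of replicate 1. At an unadjusted p under 0.05 it also gave 0, beside 0.347% of all probe sets. The lowest unadjusted p among the P450 genes in that limma fit was 0.58. The genotypes' values did not lie apart for any P450 gene, beside 1.38% of all probe sets. A replicate block gave 0 calls as well. EBE itself, higher in EBE-XVE by 2.90 (SE 1.38 without the block), was not called in either fit. The counts of 0 therefore do not show that the P450 genes were unchanged.

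The group differences of the 23 genes ran from -0.40 to 0.13 log2 units with a median of -0.01, beside a median of -0.0044 over all probe sets. EBE-XVE had the higher mean for 4 genes (17.4%), beside 40.1% of all probe sets. CYP71B26 had the smallest p among the genes higher in EBE-XVE, at 10.7 ± 1.03 (SD, n = 3) against 10.6 ± 0.46 (SD, n = 3), and did not pass. Its difference was 0.13 (SE 0.55, adjusted p = 1.00 in limma), with a 95% interval from -1.22 to 1.48. With replicate number as a block the SE was 0.24 and the interval ran from -0.48 to 0.74. The other 3 genes with the higher mean in EBE-XVE, CYP78A9, CYP71B27 and CYP79A2, were dim, and none of their differences exceeded 0.0031 log2 units.

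CYP71B28 had the smallest p among the genes lower in EBE-XVE, with -0.24 (SE 0.41, adjusted p = 1.00 in limma). With replicate number as a block its SE was 0.15, and it was not called there either. CYP71B28 was lower within every pair, at -0.31, -0.23 and -0.18 in pairs 1, 2 and 3. CYP71B34 was the only other P450 gene below WT in all 3 pairs, at -0.03, -0.02 and -0.31, and none was above WT in all 3, beside 8.23% of all probe sets. These 2 genes are 8.7% of the P450 genes, beside 6.23% of all probe sets lower in every pair, a share near the background. The next in order of p were CYP71B25 at -0.03 (SE 0.05), CYP71B38 at -0.08 (SE 0.17) and CYP71B24 at -0.40 (SE 1.16), none of which passed. With the replicate block the SE was 0.04 for CYP71B25, 0.09 for CYP71B38 and 0.29 for CYP71B24. Omitting 1 array without a block left 1 replicate 1 array in a single genotype in some fits and turned the sign of several differences, none of them called. Without EBE-XVE replicate 1 the difference was -1.25 for CYP71B24, -0.53 for CYP71B28 and -0.44 for CYP71B26. Without WT replicate 1 it was 0.67, 0.08 and 0.40, and CYP71B26 was highest, at 0.54, without EBE-XVE replicate 3. For CYP71B34 the range was -0.31 to 0.03 and for CYP71B38 -0.21 to 0.02.

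The precision differed widely between genes. For 16 of the 23 genes the 95% interval of the genotype difference lay within 2-fold either way, but only 2 of those 16, CYP71B5 and CYP71B34, were above the array median throughout. For the other 7 genes the interval reached beyond 2-fold, and for CYP71B23 it ran from -3.98 to 3.76. That spread includes the offset of replicate 1. With replicate number as a block, the interval lay within 2-fold for 20 genes, CYP71B6, CYP71B26, CYP71B28 and CYP71B29 now among them, and reached beyond it for CYP71B22 (-1.13 to 0.95), CYP71B23 (-1.72 to 1.502) and CYP71B24 (-1.12 to 0.33). With replicate 1 as a block and the array labelled EBE-XVE replicate 3 left out, again 0 P450 genes were called. The lowest adjusted p in limma among them was 0.486, for CYP71B23. EBE itself was called in that fit, at 4.25 (SE 0.15, adjusted p = 0.0316 in limma). No share of all probe sets is given for that fit, so its count of 0 has no background beside it.

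Pairs 2 and 3 rest on the replicate numbers alone. Within single pairs, 19 of the 23 genes differed by less than 0.5 log2 units in all 3. At least 2-fold differences were found for 1 gene in each pair. In pair 1 it was CYP71B22, at -1.32, where 3.53% of all probe sets were at least 2-fold lower and 1.41% higher. In pair 2 it was CYP71B23, at 1.42, where 1.52% were at least 2-fold higher and 0.659% lower. In pair 3 it was CYP71B23 again, at -2.03, where 1.21% were at least 2-fold lower and 1.04% higher. The large pair differences of these genes thus ran in opposite directions, and no P450 gene was 2-fold different the same way in all 3 pairs, beside 0.00879% of all probe sets higher and 0.0528% lower.

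In pair 3, only 3 of the 23 genes were above WT (13%), beside 28.4% of all probe sets, while in pair 2 it was 17 (73.9%), beside 67.6%. In pair 1, 15 genes were above WT (65.2%), beside 71.8%. In pair 3 the share was lowest for the P450 genes and for all probe sets alike. Pairs 1 and 2 differed by few P450 genes in this count. It goes by sign alone, so dim genes such as CYP78A9 (0.012 and 0.008 in pairs 1 and 2) count as above WT. The median P450 difference was 0.03, 0.02 and -0.11 in pairs 1, 2 and 3, beside 0.03, 0.01 and -0.05 over all probe sets. After quantile normalization the pair 3 median was -0.03, beside -0.0016 over all probe sets.

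**Figure D2:**
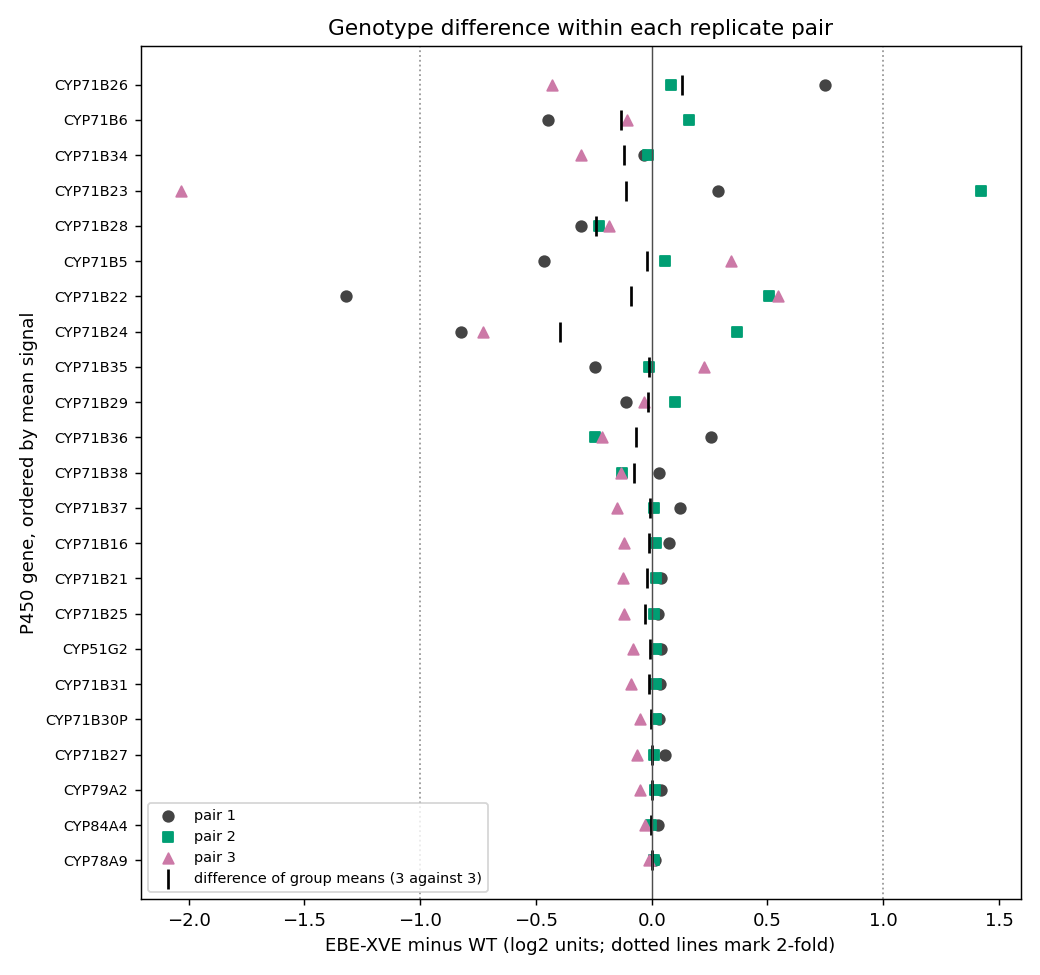
EBE-XVE minus WT (log2 units) within pair 1, 2 and 3 for each P450 gene, ordered by mean signal, with the difference of the group means as a bar. CYP71B23 reaches 1.42 in pair 2 and -2.03 in pair 3, CYP71B22 reaches -1.32 in pair 1, and the dim genes at the bottom stay near 0.

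Replicate numbers were compared next, with genotype as a further term in the fit. Replicate 1 was set against replicates 2 and 3 because earlier results of these data had shown it apart. CYP71B6, CYP71B22, CYP71B23, CYP71B24 and CYP71B29 rose in replicate 1 in both genotypes, by 4.70-fold to 11.9-fold on the deposited values, and passed under every scaling tried. As deposited, the values of 12 of 23 P450 genes were called higher (52.2%) and 1 lower (4.35%), beside 42.4% and 11.6% of all probe sets. This split depends on the scaling. With quantile normalization it was 7 higher and 7 lower, beside 20.4% and 33.7%, and with each array centred on its median 5 higher and 15 lower, beside 9.94% and 59.4%.

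The replicate 1 arrays had a higher median than the others but a similar lower quartile, at 2.67 and 2.64 against 2.50 to 2.57. The median difference of replicate 1 over all probe sets was 0.28 on the deposited values, -0.05 after quantile normalization and -0.67 after median centring. For the P450 genes it was 0.32, -0.06 and -0.64. The 7 P450 genes above the median on all arrays had medians of 1.26, 0.72 and 0.31, beside 0.65, -0.01 and -0.31 for all probe sets above the median on all arrays, which is given as a description only. Genes called under all 3 scalings in the same direction numbered 5 higher (21.7%) and 0 lower, beside 8.4% and 11.2% of all probe sets. The same 5 genes were at least 2-fold higher after quantile normalization, beside 6.91% of all probe sets, and on the deposited values CYP71B26 made it 6 (26.1%), beside 20.8%. Of the 5, 3 are near neighbours in 1 tandem run.

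CYP71B23 (AT3G26210) had the largest difference. It read 10.05, 7.70 and 4.65 in EBE-XVE replicates 1, 2 and 3, and 9.76, 6.28 and 6.68 in WT. Replicate 1 was 11.9-fold higher, a difference of 3.58 (SE 0.68, adjusted p = 0.00869 in limma). The difference was 2.92 after quantile normalization (adjusted p = 0.0414) and 2.62 after median centring (adjusted p = 0.00012). Only 0.536% of all probe sets had a difference as large or larger on the deposited values. With a robust variance prior the adjusted p was 0.0726, so that call was lost there.

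CYP71B24 (AT3G26230) read 6.97, 4.62 and 4.21 in EBE-XVE and 7.79, 4.25 and 4.94 in WT. Both replicate 1 values lay at least 2 log2 units above the other 4, and the difference was 2.87 (SE 0.31), or 7.33-fold (adjusted p = 0.00168 in limma). CYP71B22 (AT3G26200) read 7.22, 5.65 and 5.22 in EBE-XVE and 8.54, 5.15 and 4.68 in WT. Its difference was 2.70 (SE 0.44), or 6.50-fold (adjusted p = 0.00531 in limma), with 1.78 in EBE-XVE and 3.63 in WT. After quantile normalization CYP71B24 differed by 2.08 (adjusted p = 0.0118) and CYP71B22 by 1.96 (adjusted p = 0.0397). The differences of CYP71B22, CYP71B23 and CYP71B24 had overlapping SE ranges, and their order was not tested.

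CYP71B6 (AT2G24180), the enzyme of the indole branch, read 10.07, 8.21 and 7.62 in EBE-XVE and 10.52, 8.04 and 7.73 in WT. The replicate 1 arrays were higher by 2.39 (SE 0.18), or 5.26-fold (adjusted p = 0.000631 in limma), and the other 4 arrays lay within 0.6 log2 units of each other. It rose from the 77.2nd to 82.8th percentile of those 4 arrays to the 91.6th and 93.7th on the replicate 1 arrays. CYP71B29 (AT1G13100) read 5.31, 3.20 and 3.09 in EBE-XVE and 5.42, 3.11 and 3.12 in WT. It differed by 2.23 (SE 0.13), or 4.70-fold (adjusted p = 0.000385 in limma), yet never exceeded the median of its array. Quantile normalization left 1.80 for CYP71B6 (adjusted p = 0.00292) and 1.43 for CYP71B29 (adjusted p = 0.00139).

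The level of PYK10, which is highly expressed in roots, was also higher in replicate 1. Its replicate 1 difference was 3.36 log2 units. From replicate 2 to replicate 3 PYK10 differed by 0.35, and these 5 P450 genes by -1.32 (CYP71B23) to 0.14 (CYP71B24). The part of root tissue or of any other feature of replicate 1 in the P450 differences was not tested. EXPA7 differed by -0.37 and EXPA18 by -0.04 on the same arrays, both under each array's lower quartile.

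With single arrays left out, the difference was 2.86 to 4.30 for CYP71B23, 2.55 to 3.20 for CYP71B24, 2.16 to 2.63 for CYP71B6 and 2.16 to 2.30 for CYP71B29, and each call was kept. For CYP71B22 it was 1.78 to 3.63, also called throughout, with the lowest value without WT replicate 1. In 4 of these 6 fits the variance came from the trend across probe sets alone, so their p-values say little of the spread between arrays.

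Other bright genes did not keep a call across scalings. CYP71B26 was 1.26 log2 units higher in replicate 1 (SE 0.26, adjusted p = 0.0109 in limma), but 0.72 after quantile normalization (adjusted p = 0.10) and 0.31 after median centring (adjusted p = 0.26). Without EBE-XVE replicate 1 it was 0.80 on the deposited values. CYP71B28 was 0.92 higher (SE 0.15, adjusted p = 0.00593 in limma) and turned to -0.04 with median centring. CYP71B34 was 0.50 higher (SE 0.16, adjusted p = 0.0431 in limma) and turned to -0.16 and -0.46 under the other scalings. CYP71B5 differed by 0.10 (SE 0.22) on the deposited values, but by -0.66 after quantile normalization (adjusted p = 0.0723) and by -0.86 after median centring (adjusted p = 0.00477). Its place within the arrays was the 59.5th and 63.9th percentile in replicate 1, against the 66.6th to 71.1st on the other arrays.

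Of the 8 genes below every lower quartile, 7 had differences below 0 under all 3 scalings, and only CYP84A4 changed sign. No share of all probe sets is given for this count, and with median centring the median over all probe sets was itself -0.67. On the deposited values CYP51G2 differed by only -0.03 (SE 0.04) and CYP71B25 by -0.03 (SE 0.05). The shared sign is therefore a description only. CYP84A4 was 0.23 higher in replicate 1 (SE 0.03, adjusted p = 0.00193 in limma), or 1.17-fold, and 0.21 higher after quantile normalization, but -0.73 with median centring. The only gene called lower on the deposited values was CYP78A9, at -0.09 (SE 0.02, adjusted p = 0.00699 in limma), a gene that stood below the 4th percentile of every array. The 8 dim genes ranged from -0.09 to 0.23 on the deposited values, from -0.10 to 0.21 after quantile normalization and from -1.05 to -0.73 with median centring.

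**Figure D3:**
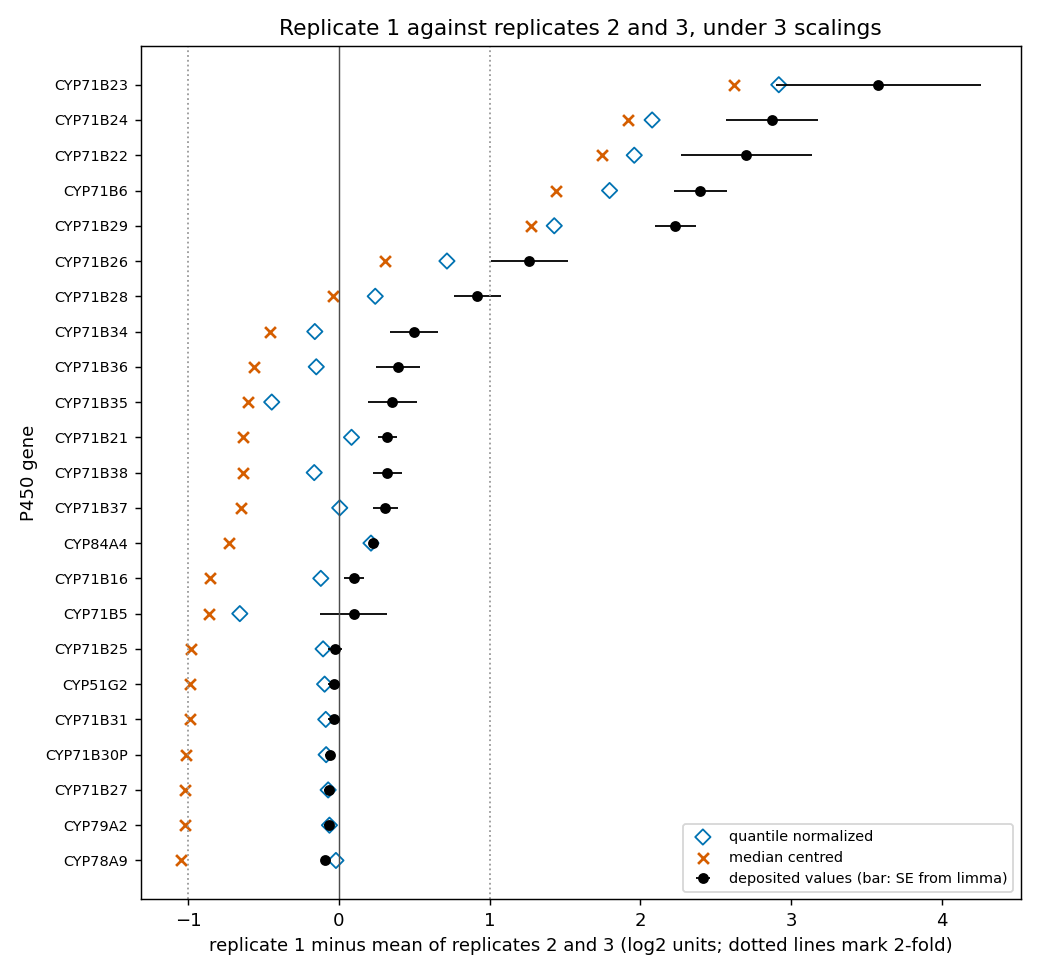
Replicate 1 minus the mean of replicates 2 and 3 (log2 units) for each P450 gene on the deposited values (dots with SE), after quantile normalization (diamonds) and after median centring (crosses). The top 5 genes, from CYP71B29 at 2.23 to CYP71B23 at 3.58, stay above 2-fold under all 3 scalings, and the crosses of the dim genes lie near -1.

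Gene order adds a second view of the 71B genes. Of the 23 genes, 11 lie in 2 neighbouring runs on chromosome 3, described by gene order alone. The first run holds 10 consecutive P450 loci from CYP71B16 to CYP71B24, of which 5 were measured singly. The other holds 8 consecutive P450 loci from CYP71B25 to CYP71B37, of which 6 were measured. A run on chromosome 1 holds CYP71B27, CYP71B28 and CYP71B29, and another part of chromosome 3 holds CYP71B5, CYP71B30P and CYP71B31.

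Neighbours in a run differed widely in signal and in their replicate 1 difference. In the first run CYP71B22, CYP71B23 and CYP71B24 rose in replicate 1, whereas CYP71B21, next to CYP71B22, read 2.65 to 3.06 on all arrays and CYP71B16 read 2.74 to 2.93. CYP71B21 was called higher as deposited, by 0.32 (SE 0.06, adjusted p = 0.0103 in limma), and by 0.08 after quantile normalization (adjusted p = 0.0435), but turned to -0.63 with median centring. A probe set annotated to both CYP71B19 and CYP71B20, which lie between those genes, was left out of the 23 because it measures more than 1 gene. It read 9.79, 8.02 and 8.38 in EBE-XVE and 9.98, 8.38 and 8.46 in WT. Its replicate 1 difference was 1.57 (SE 0.14, adjusted p = 0.00112 in limma). It was 0.97 after quantile normalization (adjusted p = 0.00579) and 0.62 after median centring (adjusted p = 0.0138). This probe set was thus called higher under all 3 scalings, with no way to divide the difference between the genes.

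In the second run none of the 6 genes was called higher under all scalings. It held the strongest P450 signal, CYP71B26, along with CYP71B25, which read 2.42 to 2.54. CYP71B35, CYP71B36 and CYP71B37 read 3.80 to 4.39, 3.13 to 3.82 and 2.79 to 3.24, and differed by 0.35, 0.39 and 0.31 in replicate 1. Only the last of these passed on the deposited values (adjusted p = 0.0264 in limma), and all 3 were below 0 with median centring. On chromosome 1, CYP71B29 rose in replicate 1 next to CYP71B28, which kept no call across scalings, and CYP71B27, a transcribed pseudogene at 2.14 to 2.26. Tandem 71B genes are similar in sequence, and although all 23 probe sets carry the suffix of probe sets designed for 1 transcript, cross-hybridization between neighbours was not tested.

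**Figure D4:**
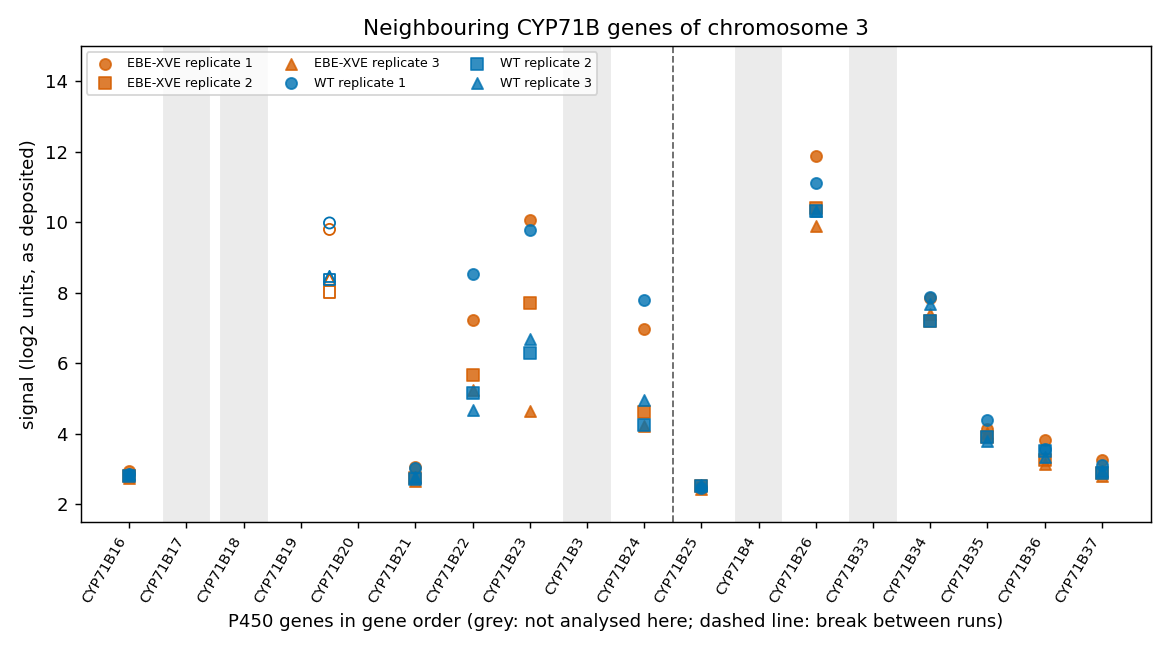
Deposited log2 signal of the CYP71B genes in the 2 neighbouring runs of chromosome 3, in gene order, on each array. Filled markers are genes measured singly, open markers the probe set shared by CYP71B19 and CYP71B20, and grey columns genes not analysed here. Replicate 1 circles stand far above the other markers for CYP71B22, CYP71B23 and CYP71B24. They also stand above them for the shared probe set (difference of 1.57) and CYP71B26 (1.26). For CYP71B16 and CYP71B21 (0.10 and 0.32) and CYP71B34 to CYP71B37 (0.31 to 0.50) they stand slightly above, and for CYP71B25 among the others.

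Replicate 3 was set against replicate 2 in the same fit. No P450 gene was called in either direction, beside 0% of all probe sets, and 0 had an unadjusted p under 0.05, beside 1.24%. CYP71B23 had the largest difference, at -1.32 (SE 0.78, adjusted p = 1.00 in limma), and the other 22 genes differed by 0.45 log2 units or less. The genotypes went apart in CYP71B23, with -3.05 in EBE-XVE and 0.40 in WT. This is the gene's low value on the array labelled EBE-XVE replicate 3, the one without raised EBE, and with 1 array per genotype and replicate the difference was not tested. CYP71B6 had the lowest unadjusted p, 0.0744, with -0.58 in EBE-XVE and -0.32 in WT.

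Few other genes of the pathways served by P450 enzymes had a named probe set. Of 86 names listed, covering redox partners and the phenylpropanoid, glucosinolate, abscisic acid, jasmonate, triterpene and cuticle pathways, 6 genes were measured. None of the 6 was called between the genotypes, and their median difference was -0.01. In replicate 1, 4 of the 6 were called higher on the deposited values, 3 after quantile normalization and 0 under all 3 scalings, beside 42.4%, 20.4% and 8.4% of all probe sets. UGT74B1, a glucosyltransferase of glucosinolate synthesis, read 11.21, 10.07 and 9.24 in EBE-XVE and 11.10, 9.74 and 9.85 in WT. HCT, which makes the shikimate esters that CYP98A3 hydroxylates, read 9.97, 9.16 and 8.80 in EBE-XVE and 10.29, 8.85 and 8.64 in WT. CCR2, a cinnamoyl-CoA reductase, read 5.64 in WT replicate 1 and 2.16 to 2.22 on every other array, so its difference rested on 1 array.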

How the data were processed

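Total RNA from shoots was measured on 6 Affymetrix ATH1 arrays, 3 per genotype, grouped by the sample titles. The deposited log2 signals are 1 value per probe set, normalized by the authors with tools listed as GCRMA and RMA, per the submitters' processing notes, which give no version. No source states the log base, so log2 was inferred from how far the values reach. Of 22810 probe sets, 64 controls were left out and 22746 tested. The number of arrays limits the precision, and p-values measure the spread between these samples.

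Names came from the platform annotation, which gave 13513 probe sets 1 symbol, 503 several and 8730 none. Loci and gene order came from a RefSeq table of TAIR10.1, without coordinates. The genotype comparison used limma 3.58.1 (R 4.3.3), with lmFit, eBayes with trend, group as the only term, 2-sided p-values and Benjamini-Hochberg adjustment over all probe sets. Replicate contrasts used group and replicate number as terms. The P450 genes, gene lists and tests were chosen with earlier results of these data known. Genes named are the 10 of highest mean, those of smallest p per direction (up to 5), those 2-fold different in all pairs, those passing under all 3 scalings, and role-list members. The remaining members of the set are given beside them. One listed companion name, CHI, matched another locus and was left out.

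Replicate numbers were treated as pairs, since deviations from the group means correlated at 0.79, 0.54 and 0.58 for pairs 1, 2 and 3. EBE-XVE replicate 3 correlated as closely with WT replicate 2 (0.60). The fits were tested on simulated data. Alternatives were 2 scalings, 2 variance priors, removal of probe sets under the 40th percentile, blocks, stricter thresholds and the omission of each array.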

Additional observations from a re-analysis of the deposited data

Results flagged for a closer look

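CYP71B23 was the only P450 gene at least 2-fold higher in EBE-XVE in 1 pair and at least 2-fold lower in another, a pattern shown by 251 of all probe sets (1.1%). Its difference was 0.288 in pair 1, 1.42 in pair 2 and -2.03 in pair 3. The pairs hold 1 array per genotype, so the difference between them was not tested. No group held enough arrays for a search for outlying samples.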

How the results depend on the processing

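The counts of 0 P450 genes higher and 0 lower between the genotypes held under all 16 other fits run. These included the replicate block (0 and 0) and the omission of each array. Both stricter thresholds could only leave a count of 0 as it was. The mean over several probe sets per locus was not run, since every gene had 1. The median genotype difference was -0.0145, moved to -0.0906 with the dim probe sets left out, and was -0.14 to 0.0641 with each array omitted in turn (lowest without EBE-XVE replicate 1, highest without WT replicate 1). The number of P450 genes higher in replicate 1 was 12, with 7 after quantile normalization, 5 after median centring, 6 with a 2-fold minimum, 7 at an adjusted p under 0.01 and 8 to 13 with single arrays omitted. The number lower was 1, with 7 after quantile normalization, 15 after median centring, 0 without trend, with dim probe sets left out or with a 2-fold minimum, and 0 to 7 with single arrays omitted (7 without EBE-XVE replicate 3, 3 without WT replicate 3). The median replicate 1 difference was 0.321, against -0.0627, -0.635 and 1.26 with quantile normalization, median centring and dim probe sets left out, and 0.239 to 0.368 with single arrays omitted. Reversed single genes in replicate 1 were CYP71B34 (-0.16 with quantile normalization and -0.458 with median centring), CYP71B35 (-0.446 and -0.601), CYP71B28 (-0.0377 with median centring) and CYP71B5 (-0.859 with median centring, and -0.235 to 0.431 with single arrays omitted). The calls of CYP71B6, CYP71B22, CYP71B24 and CYP71B29 held in every alternative run, and that of CYP71B23 in all but the robust prior (adjusted p = 0.0726). Replicate 3 against replicate 2 gave 0 higher throughout and 0 to 1 lower with single arrays omitted, CYP71B23 without EBE-XVE replicate 1, WT replicate 1 or WT replicate 2. Those fits had 1 residual degree of freedom and used only the variance trend fitted across probe sets. The cause was not tested for any of these changes. Shares of all probe sets called in replicate 1 are given above for the deposited values and the 2 scalings only. The counts of called genes under the other settings therefore have no background beside them. The files hold no measure of background, so what dim P450 genes could show is not known. Chosen after seeing the data were the batch block fit that omits EBE-XVE replicate 3, the fit on replicates 2 and 3 only, and quantile normalization with a batch block. Omitting EBE-XVE replicate 3 with no block was planned.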
